A study of Homo sapiens with 6 samples.

Results

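The miR-15/16 family was examined at 3 doses of TGF-β1 in a pair of established human lung lines, A549, which derives from an adenocarcinoma, and BEAS-2B, which is immortalised bronchial epithelium. It was taken by name as 7 of the 2588 mature miRNAs listed in each library, namely hsa-miR-15a-5p, hsa-miR-15b-5p, hsa-miR-15b-3p, hsa-miR-16-5p, hsa-miR-16-2-3p, hsa-miR-195-5p and hsa-miR-497-5p, written below without the species prefix. The relatives miR-424-5p and miR-503-5p were not members. Small RNA was sequenced from 6 cultures, 1 for each line without TGF-β1, with 1 ng/mL and with 5 ng/mL, and treatment lasted 48 h. All cells were labelled WT, and treated cells received the cytokine in RPMI1640 medium with 1% serum. Each dose of each line is a single culture, hence the spread between replicates of a group is unknown, a difference at 1 dose of 1 line could not be tested and each interval covers counting error only. A test was possible only over the lines together, in an additive fit given after each comparison.

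The family is a set of small RNAs that restrain cell division. Their 5p strands share a seed, the stretch of bases 2 to 8 that pairs with messenger RNAs, and are known to repress cyclins and the anti-apoptotic gene BCL2. TGF-β1 is a cytokine that slows epithelial proliferation and drives epithelial cells toward a mesenchymal state. Each miRNA hairpin yields a strand from its 5p arm and one from its 3p arm, of which one is usually retained and the other mostly degraded.

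The mature sequences are shown because the shared seed defines the family and because the 3p strands carry other seeds. All 7 members matched the RefSeq table (build GRCh38.p14). They are written 5′ to 3′ with bases 2 to 8 in capitals.
hsa-miR-15a-5p: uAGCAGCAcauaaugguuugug
hsa-miR-15b-5p: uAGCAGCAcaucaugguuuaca
hsa-miR-16-5p: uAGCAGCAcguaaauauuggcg
hsa-miR-195-5p: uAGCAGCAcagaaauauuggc
hsa-miR-497-5p: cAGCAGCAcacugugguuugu
hsa-miR-15b-3p: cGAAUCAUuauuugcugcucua
hsa-miR-16-2-3p: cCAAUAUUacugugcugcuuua
The 5 strands from the 5p arm had the same 7 capital letters, and the 2 strands from the 3p arm shared neither this seed nor each other's. The closest pair of members was miR-16-5p and miR-195-5p, separated by 3 single-base edits, and miR-15a-5p and miR-15b-5p were separated by 4. How reads that match several members were assigned is not given in the sources used here.

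The relatives outside the family are shown to place this seed beside those of its neighbours.
hsa-miR-424-5p: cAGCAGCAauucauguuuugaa
hsa-miR-503-5p: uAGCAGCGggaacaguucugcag
hsa-miR-107: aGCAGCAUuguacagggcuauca
hsa-miR-16-1-3p: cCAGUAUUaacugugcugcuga
Among the 2281 listed miRNAs with a RefSeq sequence, 7 had the seed of the 5p members, which were these 5 with miR-424-5p and miR-6838-5p. The seed of miR-503-5p differed in its last base, and that of miR-107 held the same letters shifted by one position. miR-16-1-3p is the 3p strand of the other miR-16 hairpin and had a different seed from miR-16-2-3p.

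The members come from 6 hairpins at 3 loci of GRCh38. MIR15B (chr3:160404588-160404685) and MIR16-2 (chr3:160404745-160404825) lie, on the plus strand, within intronic sequence of SMC4, a condensin subunit used in chromosome compaction. They were intronic in all 13 annotated SMC4 transcripts that span them. MIR15A (chr13:50049119-50049201) and MIR16-1 (chr13:50048973-50049061) lie on the minus strand in an intron of the noncoding gene DLEU2, a region often lost in chronic lymphocytic leukaemia. MIR195 (chr17:7017615-7017701) and MIR497 (chr17:7017911-7018022) lie on the minus strand in MIR497HG, where they overlapped an exon in 1 of the 2 transcripts spanning them. The sequence of miR-16-5p is encoded at both MIR16-1 and MIR16-2, so its count sums over 2 loci, whereas miR-16-2-3p comes from MIR16-2 alone.

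Library totals ranged from 633318 to 900424 counts, and a count of 0 allows up to 3 counts as a one-sided 95% limit, or 3.33 to 4.74 counts per 1000000 (CPM). Counts were scaled by the trimmed mean of M-values (TMM), which sets libraries to a common level from the bulk of miRNAs. These normalised counts, with 1 added, were taken to log2 and called ND. A miRNA passed the criteria when the higher ND of the 2 libraries was at least 8 and the fold change at least 1.4 in either direction, the study's thresholds. The untreated BEAS-2B library stood apart, with a TMM factor of 1.32 against 0.829 to 1.02 elsewhere and with miR-21-5p at 35.4% of its counts against 47.6% to 57.2%. Other scalings shifted the median log2 ratio to control of all miRNAs by between -0.16 and 0.16 in A549 cells, by between -0.59 and 0.04 in BEAS-2B cells with 1 ng/mL and by between -0.41 and 0.18 with 5 ng/mL. Of 6 epithelial marker miRNAs, 5 or 6 had a count in each library, with a sum of 277 to 642 CPM, and miR-205-5p had 0 to 2 counts. Blood cell markers were near 0, with miR-223-3p at 0 in all 6 libraries and miR-451a, a red cell miRNA, at 0 to 2 counts. The highest was miR-142-3p, with 9 counts in untreated A549 cells and 0 or 1 in the other libraries. The endothelial marker miR-126-3p had 1003 to 1280 counts in A549 and 197 to 393 in BEAS-2B libraries, and its part in the differences between the lines was not tested. The other listed endothelial marker, miR-126-5p, had 0 to 11 counts.

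The 4 strands miR-16-5p, miR-16-2-3p, miR-15b-5p and miR-15b-3p carried nearly all family reads. In untreated A549 cells, the counts were 493 for miR-16-5p, 474 for miR-16-2-3p, 264 for miR-15b-3p and 205 for miR-15b-5p. In untreated BEAS-2B cells, they were 3114 for miR-16-5p, 1229 for miR-16-2-3p, 986 for miR-15b-5p and 580 for miR-15b-3p. miR-16-5p was therefore the most abundant member in untreated BEAS-2B cells, where it ranked 27 among all miRNAs, whereas in untreated A549 cells its counting interval overlapped that of miR-16-2-3p. The 7 members together made up 0.184%, 0.212% and 0.241% of A549 counts at 0, 1 and 5 ng/mL. In BEAS-2B cells, the corresponding shares were 0.818%, 0.446% and 0.625%. With TMM scaling, the summed normalised counts were 1513, 1920 and 1775 in A549 cells and 4625, 3395 and 4703 in BEAS-2B cells. The lower share in BEAS-2B cells at 5 ng/mL than without treatment was thus absent after TMM scaling. The order of different miRNAs is one of read counts, since strands can differ in how well they enter a library. Less RNA per cell and fewer cells carrying it cannot be told apart in bulk libraries.

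The other 3 members were scarce. miR-15a-5p, the chromosome 13 partner of miR-16, had 15, 6 and 7 counts with rising dose in A549 cells, and 86, 39 and 95 in BEAS-2B cells. miR-195-5p had 2, 6 and 3 counts in A549 cells against 14, 6 and 14 in BEAS-2B cells. miR-497-5p had 1, 0 and 1 against 4, 0 and 1. None of these 3 reached an ND of 8 in any library. Changes in miR-195-5p and miR-497-5p with treatment were not detectable at this depth. Both come from the chromosome 17 locus.

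**Figure D1:**
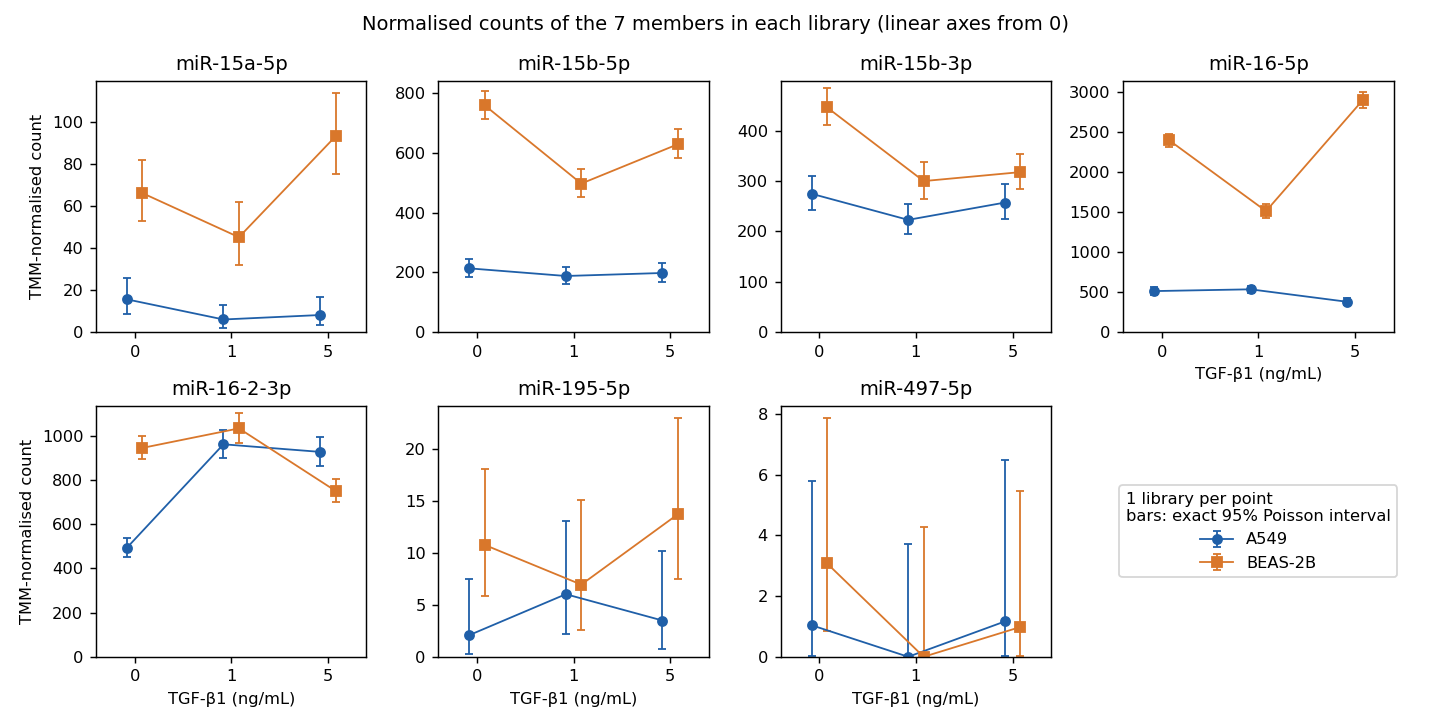
TMM-normalised counts of the 7 members (vertical axes, linear from 0) at 0, 1 and 5 ng/mL TGF-β1 (horizontal axes) in A549 (circles) and BEAS-2B (squares) libraries, with exact 95% Poisson intervals. miR-16-5p, miR-15b-5p and miR-15a-5p lie lower in A549 than in BEAS-2B cells at every dose, whereas the lines cross for miR-16-2-3p.

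The first comparison concerned the cell lines. Without treatment, all 4 members that met the ND criterion passed at a lower level in A549 than in BEAS-2B cells. Of the 135 miRNAs meeting it, 68.9% passed in either direction and 28.1% as lower in A549 cells. The median log2 ratio, A549 over BEAS-2B, was -1.38 over the 4 members and 0.27 over the 135. The criterion takes the higher library, and miR-15b-5p met it through BEAS-2B cells alone, with an ND of 9.57 against 7.74 in A549 cells. Its place among the 4 thus came from the line where it was higher.

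For miR-16-5p, the normalised count was 513 in untreated A549 and 2395 in untreated BEAS-2B cells, a log2 ratio of -2.22 (95% interval -2.36 to -2.09). With 1 ng/mL the log2 ratio was -1.50. It was -2.93 (-3.10 to -2.77) with 5 ng/mL, where A549 cells had 379 and BEAS-2B cells 2898 normalised counts, a 7.62-fold difference. For miR-15b-5p, the corresponding values were -1.83, -1.40 and -1.66. Those of miR-15a-5p were -2.02, -2.72 and -3.36 on low counts, with an interval of -4.87 to -2.42 at 5 ng/mL. These 3 strands were lower in A549 cells by over 1.4-fold at each dose under every one of the 6 other scalings that apply between lines.

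The 3p strands differed less between the lines. miR-15b-3p had log2 ratios of -0.70 (-0.92 to -0.49), -0.43 and -0.30 at 0, 1 and 5 ng/mL, of which only the first passed the criteria with TMM, while the value was beyond 1.4-fold in 5 of the 6 other scalings at 1 ng/mL and in 3 at 5 ng/mL. For miR-16-2-3p, the values were -0.94 (-1.09 to -0.78), -0.10 (-0.24 to 0.03) and 0.30 (0.16 to 0.45). The sign flipped in 1 of the 6 other scalings at 1 ng/mL, to 0.10, and in 1 at 5 ng/mL, to -0.02. At 1 and 5 ng/mL, 2 of the 4 members meeting the ND criterion passed, miR-16-5p and miR-15b-5p, both lower in A549 cells. Here too miR-15b-5p met the criterion through BEAS-2B cells alone, with an ND of 7.56 and 7.64 in A549 cells. Of all miRNAs meeting the criterion, 64.3% passed with 1 ng/mL, 25.9% as lower, and 67.8% with 5 ng/mL, 29.5% as lower.

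Summed over the 5 members that share the seed, A549 libraries had 716, 732 and 507 counts with rising dose and BEAS-2B libraries 4204, 1780 and 3707. After normalisation this sum was 4.34-fold lower in A549 cells without treatment, 2.80-fold lower with 1 ng/mL and 6.15-fold lower with 5 ng/mL. With miR-424-5p and miR-6838-5p, which carry the same seed, added, it was 3.68-fold, 2.61-fold and 5.80-fold lower. Within A549 cells the log2 ratio of the sum to control was -0.02 (-0.17 to 0.13), above 0 in 1 of the 7 other scalings, and then -0.34 (-0.50 to -0.17). In BEAS-2B cells it was -0.65 (-0.73 to -0.57) and then 0.17 (0.10 to 0.23), the last of which was below 0 in 3 of the 7 other scalings.

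The difference between the lines was then tested with all 6 libraries by edgeR's quasi-likelihood test with dose as a block, which takes it to be alike at every dose and leaves 2 residual degrees of freedom. Of the 5 members with a mean count of at least 10, 3 passed at an adjusted p under 0.05, against 47% of the 398 miRNAs tested. miR-15a-5p met this mean mainly through BEAS-2B cells, with 39 to 95 counts against 6 to 15 in A549 cells. The log2 fold change was -2.22 for miR-16-5p (edgeR adjusted p = 0.000995), -1.63 for miR-15b-5p (edgeR adjusted p = 0.000998) and -2.76 for miR-15a-5p (edgeR adjusted p = 0.00147). Each was lower in A549 cells at all 3 doses. Without any 1 library, their highest adjusted p values from edgeR were 0.0138, 0.0272 and 0.0272. In such a fit, the other library of the same dose no longer informs this difference, and 1 residual degree of freedom is left. miR-15b-3p, at -0.48 (edgeR adjusted p = 0.119), and miR-16-2-3p, at -0.24 (edgeR adjusted p = 0.484), did not pass, and miR-15b-3p passed under 1 of the 5 other scalings (edgeR adjusted p = 0.0416 with TMM on filtered miRNAs).

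The make-up of the 5p members does not depend on scaling. miR-16-5p made up 68.9% of their summed count in untreated A549 cells (exact 95% binomial interval 65.3 to 72.2), 72.8% (69.4 to 76.0) with 1 ng/mL and 64.3% (60.0 to 68.5) with 5 ng/mL. The share in BEAS-2B cells was 74.1% (72.7 to 75.4), 73.4% (71.3 to 75.4) and 79.7% (78.4 to 81.0). The share of miR-15b-5p at 5 ng/mL was 33.5% (29.4 to 37.8) in A549 and 17.3% (16.1 to 18.5) in BEAS-2B cells. The 2 lines thus stood furthest apart in make-up at the higher dose. For both miR-16-5p and miR-15b-5p, the intervals of the lines did not overlap there or without treatment, and overlapped with 1 ng/mL. miR-15a-5p made up 0.820% to 2.56%.

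**Figure D2:**
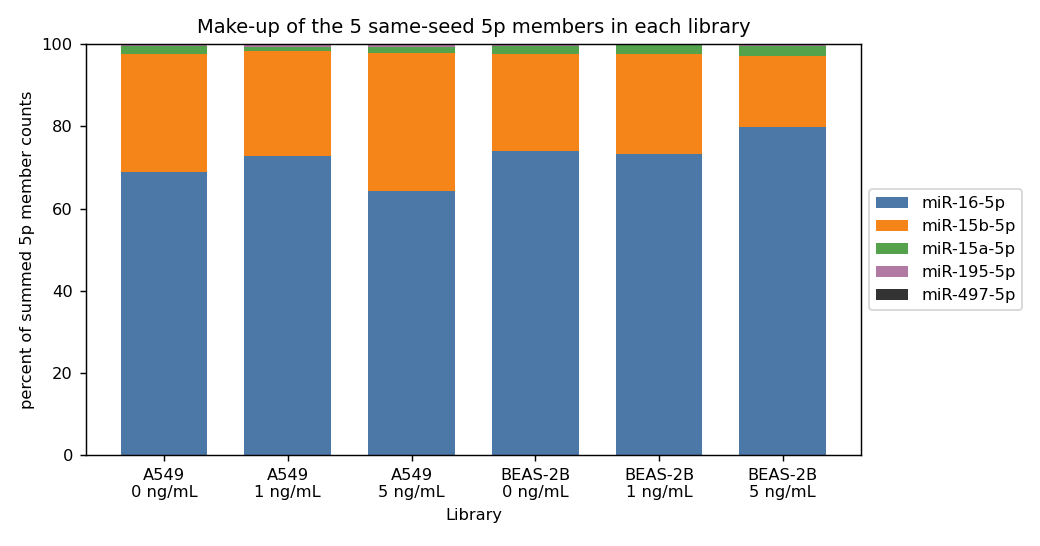
Share of each of the 5 same-seed 5p members in their summed count (vertical axis, percent) in each of the 6 libraries (horizontal axis). miR-16-5p takes from 64.3% (A549, 5 ng/mL) to 79.7% (BEAS-2B, 5 ng/mL) and miR-15b-5p nearly all of the remainder.

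The second comparison asked how the family differed between TGF-β1-treated and untreated cells. In A549 cells, miR-16-2-3p was higher at both doses and was the only member past the criteria, as 1 of the 3 that met the ND criterion. Of all miRNAs meeting it, 48.9% passed with 1 ng/mL and 53.2% with 5 ng/mL, and 27% passed as higher with each dose. The counts of miR-16-2-3p were 474, 958 and 797 at 0, 1 and 5 ng/mL, or 493, 962 and 928 after normalisation. Relative to control, its log2 ratio was 0.96 (0.80 to 1.13) with 1 ng/mL and 0.91 (0.75 to 1.08) with 5 ng/mL, and it stayed beyond 1.4-fold under each of the 7 other scalings. Both treated libraries lay above the control with intervals that did not overlap it. In the same libraries, the summed epithelial markers were 277, 426 and 469 CPM, with 5, 6 and 5 of the 6 above 0. Most of this sum was miR-200b-3p, at 139, 271 and 204 counts, while miR-200c-3p had 36, 38 and 35 and miR-205-5p had 0, 1 and 0. The summed epithelial markers in BEAS-2B cells were 642, 452 and 433 CPM at 0, 1 and 5 ng/mL. The part of these markers in the result was not tested. The treated doses differed by a log2 ratio of -0.05 (-0.19 to 0.08).

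The strand usually retained from the same hairpin, miR-16-5p, did not pass against control. It had counts of 493, 533 and 326 in A549 cells, and its log2 ratio with 1 ng/mL was 0.06 (-0.12 to 0.24), a sign that flipped in 4 of the 7 other scalings. With 5 ng/mL it was -0.43 (-0.64 to -0.23), short of 1.4-fold, with a fall beyond 1.4-fold in 5 of the 7. Between 5 and 1 ng/mL, the log2 ratio was -0.50 (-0.70 to -0.29), just past the criteria, where 16.9% of the 130 miRNAs passed, 8.46% as lower. It was beyond 1.4-fold in 4 of the 7 other scalings.

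Neither miR-15b strand passed the criteria in A549 cells. The counts of miR-15b-5p were 205, 187 and 170, with log2 ratios of -0.18 (-0.48 to 0.11) and -0.11 (-0.41 to 0.19) at 1 and 5 ng/mL. Those of miR-15b-3p were 264, 222 and 221, with log2 ratios of -0.30 (-0.57 to -0.04) and -0.09 (-0.36 to 0.17). Of these 4 intervals, 3 included no change, and both values at 5 ng/mL were above 0 with total count scaling.

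In BEAS-2B cells, 3 of the 4 members meeting the ND criterion were lower past the criteria at 1 ng/mL, where 29.2% of the 120 miRNAs passed, 13.3% as lower. The median log2 ratio was -0.59 over the 4 members and -0.04 over the 120. miR-16-5p had counts of 3114, 1306 and 2956 at 0, 1 and 5 ng/mL, or 2395, 1512 and 2898 after normalisation, so the 1 ng/mL library lay below both others. Its log2 ratio at 1 ng/mL was -0.66 (-0.76 to -0.57), and the fall was beyond 1.4-fold under each of the 7 other scalings. At the higher dose it was 0.27 (0.20 to 0.35), short of 1.4-fold, and below 0 in 3 of the 7. The difference between 5 and 1 ng/mL was 0.94 (0.84 to 1.03), a 1.92-fold higher level at the higher dose, and exceeded 1.4-fold under all 7. Few miRNAs differed in this way, since 6.61% of the 121 miRNAs passed between the doses and 7 of them, or 5.79%, were higher with 5 ng/mL. This comparison does not use the control library that stood apart.

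Of the other strands, miR-15b-5p had counts of 986, 429 and 641 in BEAS-2B cells. With 1 ng/mL its log2 ratio was -0.61 (-0.78 to -0.45), past the criteria except with quantile normalisation (-0.46), and with 5 ng/mL -0.27 (-0.42 to -0.13). miR-15b-3p had counts of 580, 259 and 324, with log2 ratios of -0.57 (-0.79 to -0.36) and -0.49 (-0.69 to -0.29). Both values of miR-15b-3p passed, the second by a narrow margin at 1.403-fold, and it was the only member to pass at 5 ng/mL, where 36% of the 125 miRNAs passed, 16% as lower. Both miR-15b strands were below control at both doses under every scaling tried. The counts of miR-16-2-3p were 1229, 893 and 766, with log2 ratios of 0.13 (0.00 to 0.25), a sign that flipped in 3 of the 7 other scalings, and -0.33 (-0.46 to -0.20). miR-15a-5p, below the ND criterion, had a log2 ratio of 1.03 (0.49 to 1.62) between 5 and 1 ng/mL.

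**Figure D3:**
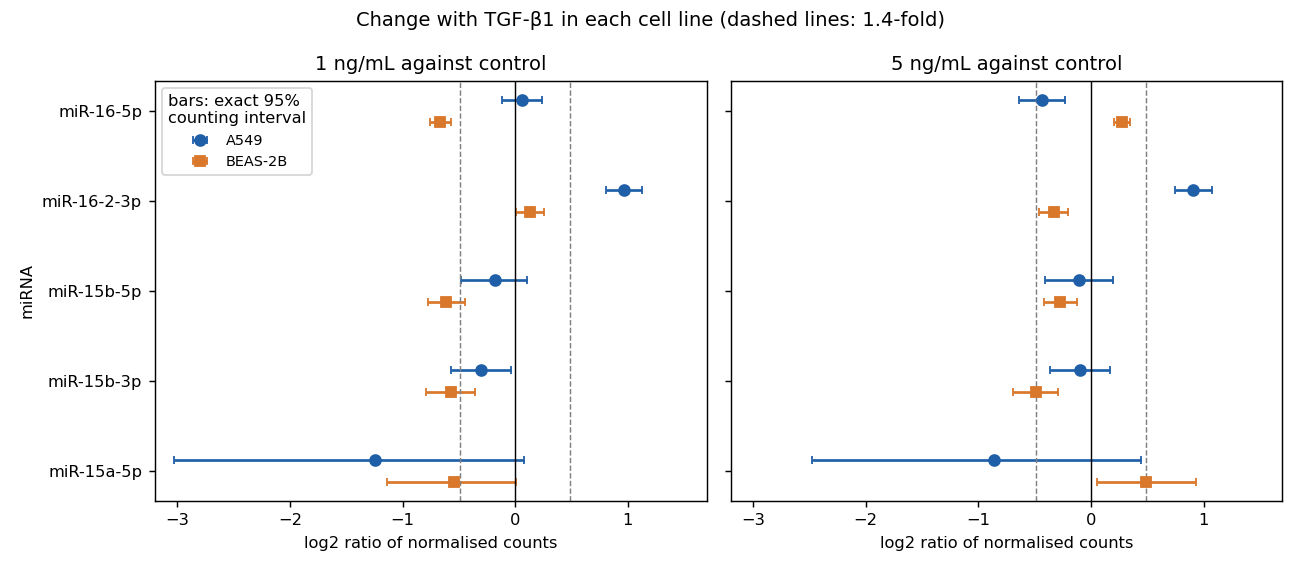
Log2 ratio of normalised counts to the untreated library (horizontal axes) at 1 ng/mL (left) and 5 ng/mL (right) for 5 members in A549 (circles) and BEAS-2B (squares) cells, with exact 95% counting intervals. In A549 cells miR-16-2-3p stands beyond 1.4-fold (dashed lines) at both doses, and in BEAS-2B cells miR-16-5p lies at -0.66 at 1 ng/mL and at 0.27 at 5 ng/mL.

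Set side by side, the response of miR-16-2-3p was 1.24 log2 units higher in A549 than in BEAS-2B cells at 5 ng/mL (counting standard error 0.107, 95% interval 1.03 to 1.45) and 0.83 higher at 1 ng/mL (0.63 to 1.03). For miR-16-5p, the difference between the lines was 0.72 (0.52 to 0.92) with 1 ng/mL and -0.71 (-0.92 to -0.49) with 5 ng/mL, so its sign changed with the dose. Over the other scalings it ran from 0.62 to 1.37 and from -0.90 to -0.14, the last with total count scaling, while that of miR-16-2-3p with 5 ng/mL ran from 0.99 to 1.81. For miR-15b-5p it was 0.43 (0.10 to 0.76) with 1 ng/mL, with values from 0.00 to 1.07 over the scalings, and 0.16 (-0.16 to 0.49) with 5 ng/mL, with values from -0.16 to 0.73. For miR-15b-3p it was 0.27 (-0.06 to 0.60) and 0.39 (0.07 to 0.72), above 0 under every scaling. Within each line both doses share a control library. None of these differences has a replicate check.

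Treatment was tested over both lines by the same edgeR test, with the 4 treated libraries against the 2 controls and line as a block, which takes the lines and doses to respond alike and leaves 3 residual degrees of freedom. With TMM scaling, none of the 5 members tested passed, against 4.02% of the 398 miRNAs. None had an unadjusted p under 0.05, which 97 of the 398 miRNAs had. The log2 fold change was 0.39 for miR-16-2-3p (edgeR adjusted p = 0.378) and -0.14 for miR-16-5p (edgeR adjusted p = 0.777). Those of miR-15b-3p and miR-15b-5p were -0.37 (edgeR adjusted p = 0.281) and -0.30 (edgeR adjusted p = 0.371). For miR-15b-3p, the unadjusted edgeR p was 0.0451 with DESeq2 size factors and 0.0321 with TMM on filtered miRNAs. For miR-15b-5p, it was 0.0487 with TMM on filtered miRNAs. Over the other scalings, their lowest adjusted p values from edgeR were 0.160 and 0.196. Without the BEAS-2B control, when treatment is estimated in A549 cells alone, the log2 fold change of miR-16-2-3p was 0.86. Without the A549 control, in BEAS-2B cells alone, it was -0.11. Each of these fits rests on 1 control library, so only the effect size is given.

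The third comparison used the ratio of 3p to 5p reads within a library, which no scaling between libraries can alter. In A549 cells, there were 0.961 reads of miR-16-2-3p (exact 95% interval 0.846 to 1.09) for each read of miR-16-5p in the control, 1.80 (1.62 to 2.00) with 1 ng/mL and 2.44 (2.15 to 2.79) with 5 ng/mL. In BEAS-2B cells, there were 0.395 (0.369 to 0.422), 0.684 (0.627 to 0.745) and 0.259 (0.239 to 0.281). The strand usually regarded as the passenger thus outnumbered the guide in both treated A549 libraries and in none of the BEAS-2B libraries. Against control, the ratio in A549 cells was 1.87-fold higher at 1 ng/mL and 2.54-fold higher at 5 ng/mL. BEAS-2B cells had a ratio 1.73-fold higher with 1 ng/mL and 1.52-fold lower with 5 ng/mL. Between the lines at 5 ng/mL, it differed by 9.43-fold, or 3.24 on the log2 scale (3.02 to 3.46).

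For miR-15b, the hairpin beside it in SMC4, no change with treatment beyond counting error was found in this ratio. There were 1.29 (1.07 to 1.55), 1.19 (0.973 to 1.45) and 1.30 (1.06 to 1.60) reads of miR-15b-3p for each read of miR-15b-5p at 0, 1 and 5 ng/mL in A549 cells. In BEAS-2B cells, there were 0.588 (0.530 to 0.652), 0.604 (0.515 to 0.706) and 0.505 (0.441 to 0.579). The intervals of all 4 changes against control included no change, for example -0.22 (-0.46 to 0.02) on the log2 scale at 5 ng/mL in BEAS-2B cells. Between the lines the ratio was higher in A549 cells at each dose, by 2.19-fold, 1.97-fold and 2.57-fold.

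To place these values, the same ratio was taken for 38 arm pairs with a mean of at least 50 counts on both arms. Arms were paired by matching names, and the miR-16 pair was set by hand. Other hairpins in which only 1 arm's name carries a locus number were left out. Against control, 10.5% of the 38 pairs were higher by 1.4-fold in A549 cells with 1 ng/mL and 26.3% with 5 ng/mL. In BEAS-2B cells, 13.2% were higher by 1.4-fold with 1 ng/mL and 21.1% lower by 1.4-fold with 5 ng/mL. Between the lines, 26.3%, 23.7% and 31.6% were higher by 1.4-fold in A549 cells at 0, 1 and 5 ng/mL. The range over the 6 libraries, highest over lowest, was 9.41-fold for the miR-16 pair, which ranked 1 of the 38, and 2.56-fold for the miR-15b pair, which ranked 12. The median over the 38 was 1.90-fold. This measure was chosen after the values were seen. The miR-16 pair also remained at rank 1 with a minimum of 20 counts (61 pairs) or 100 counts (30 pairs). The next widest ranges among the 38 were those of miR-27a (7.71-fold), miR-335 (6.75-fold) and the relative miR-424 (4.87-fold). With rising dose, the miR-424 ratio was 1.14, 1.46 and 2.97 in A549 cells and 1.07, 0.941 and 0.611 in BEAS-2B cells. A ratio that rose in A549 and was lower at 5 ng/mL in BEAS-2B cells was thus not particular to miR-16.

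**Figure D4:**
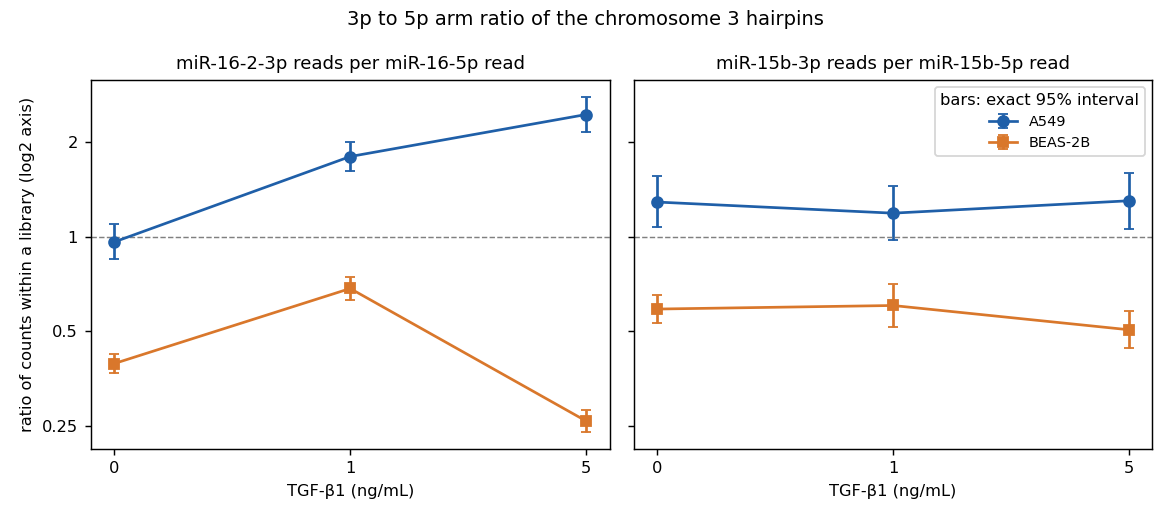
Reads of the 3p strand per read of the 5p strand within a library (vertical axes, log2 scale) at 0, 1 and 5 ng/mL TGF-β1 (horizontal axes) for miR-16-2 (left) and miR-15b (right), with exact 95% intervals. The miR-16 ratio in A549 cells (circles) goes from 0.961 to 2.44 and in BEAS-2B cells (squares) from 0.395 to 0.259 between 0 and 5 ng/mL, while the miR-15b intervals overlap within each line.

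The miR-16 ratio mixes 2 loci in its denominator, so the strands specific to the chromosome 13 locus were examined. miR-16-1-3p had 2, 2 and 1 counts with rising dose in A549 cells, and 15, 10 and 15 in BEAS-2B cells. miR-15a-3p had 0 to 3 counts in every library. Reads specific to the chromosome 13 hairpins were therefore few beside the 474 to 1229 reads of miR-16-2-3p, and how much of miR-16-5p each locus gave cannot be told apart. The other strand of miR-195, miR-195-3p, had 12 to 18 counts in each library and exceeded miR-195-5p in every A549 library. In BEAS-2B cells it had 16, 12 and 14 counts with rising dose, against 14, 6 and 14 of miR-195-5p. It shares the seed of miR-16-2-3p, from which it is separated by 5 edits. miR-497-3p had 1 count in 1 library and 0 in the other 5.

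Relatives with the same or a nearby seed did not show one common pattern. miR-424-5p, which has the family seed, had log2 ratios at 5 ng/mL of -0.81 (-1.18 to -0.46) in A549 cells, below the ND criterion, and 0.83 (0.63 to 1.04) in BEAS-2B cells, past the criteria. miR-503-5p had values of 0.01 (-0.16 to 0.18) and 0.33 (0.18 to 0.48). miR-6838-5p had at most 1 count in a library. With the shifted seed, miR-107 had log2 ratios of -0.58 (-0.77 to -0.39) in A549 cells, past the criteria, and -0.20 (-0.37 to -0.04) in BEAS-2B cells. miR-103a-3p had -0.38 and -0.29 and passed in neither. Of these 5 relatives, 1 passed as lower in A549 cells and 1 as higher in BEAS-2B cells at 5 ng/mL, where 26.2% and 20% of all miRNAs meeting the ND criterion passed in these directions.

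The profiles of the members over the 6 libraries were compared with those of the 156 other miRNAs that reached an ND of 8, by the Euclidean distance between ND values centred on each miRNA's mean. For miR-16-5p, the nearest were miR-210-3p (distance 0.758), miR-152-3p (0.888) and miR-574-3p (0.900), followed by miR-15b-5p (0.949) at rank 4. For miR-15b-5p, they were let-7b-5p (0.400), miR-574-5p (0.611) and miR-574-3p (0.626). The nearest to miR-15b-3p were miR-26a-5p (0.255), miR-191-5p (0.327) and miR-103a-3p (0.373). For miR-16-2-3p, they were miR-200b-3p (0.312), miR-27a-3p (0.562) and miR-25-3p (0.583). The strands of miR-16 lay 2.78 apart, with miR-16-5p at rank 125 of 156 seen from miR-16-2-3p and miR-16-2-3p at rank 60 seen from miR-16-5p. Those of miR-15b lay 1.43 apart, at rank 78 seen from miR-15b-3p and at rank 27 seen from miR-15b-5p. These distances rest on 6 single libraries.

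**Figure D5:**
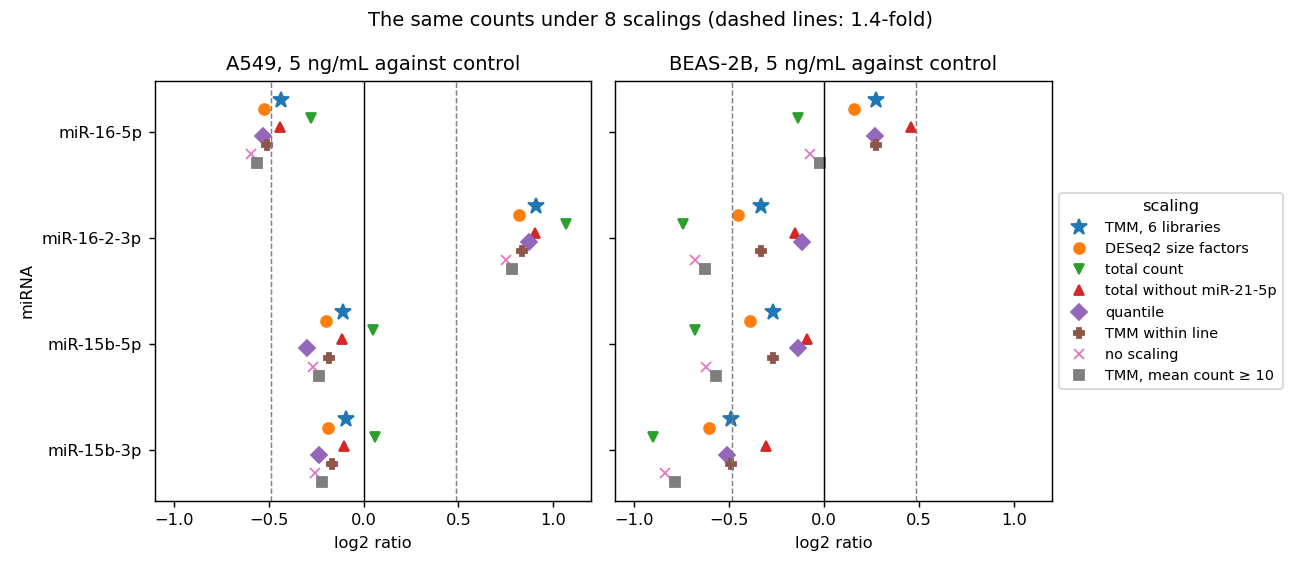
Log2 ratio of 4 members at 5 ng/mL against control (horizontal axes) in A549 (left) and BEAS-2B (right) cells under TMM (stars) and the 7 other scalings (other symbols). In A549 cells the higher level of miR-16-2-3p lies between 0.75 and 1.07 under all of them, whereas in BEAS-2B cells miR-16-5p lies between -0.14 and 0.46, on both sides of 0.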

How the data were processed

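Total RNA from A549 and BEAS-2B cells, untreated or given TGF-β1 at 1 or 5 ng/mL for 48 h, had been made into small RNA libraries, 1 for each of 6 groups taken from the sample labels. Each file as deposited lists whole-number read counts of mature miRNAs, which the authors had not normalised. The submitters' processing notes named Bowtie2 and bedtools. Versions, genome build, miRNA annotation, use of strand and treatment of reads matching several miRNAs were not given in the sources used here. Molecular identifiers were not mentioned, so intervals cover counting error only.

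Factors were computed by TMM over all 6 libraries with edgeR 4.0.16 in R 4.3.3, without a filter, and counts were scaled to the mean effective library size of 749498. Ratios were differences of log2(normalised count + 1). Their 95% intervals were exact Clopper-Pearson intervals of the conditional binomial share, and counts had exact Poisson intervals. A difference between lines, or of arm ratios, had a counting standard error by the delta method. Alternatives were DESeq2 1.42.0 size factors, total count with and without miR-21-5p, quantile normalisation (limma 3.58.1), TMM within a line, TMM on miRNAs with a mean count of at least 10, no scaling, pseudocounts of 0.5 and 10, and other thresholds. Because each group had 1 library, p-values came only from edgeR quasi-likelihood fits across lines and doses without an interaction, on miRNAs with a mean count of at least 10, with Benjamini-Hochberg adjustment. These fits were added after the data were seen. The text names the 7 members, the lists of relatives, other arms and cell type markers, and the 3 nearest profiles of each member with an ND of at least 8. Members and lists were chosen with earlier results of these data known. Hairpin locations came from RefSeq and containing genes from GENCODE release 29, both on GRCh38. The procedure was tested on simulated counts, with counting error alone for the ratios and a fixed spread for the fits. These simulations held no opposite responses between the lines and cannot show the spread between cultures. Python 3.11.15, scipy 1.17.1 and matplotlib 3.10.9 were used.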

Additional observations from a re-analysis of the deposited data

How the results depend on the processing

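No paired analysis was possible because the labels carry no replicate numbers that link libraries of different groups, and with 1 library per group no replicate of a ratio could be left out. In the fits over both lines, chosen after seeing the data, 0 members passed for treatment under each of 5 other scalings. When each library was left out in turn, the log2 fold change of miR-16-2-3p with treatment ran from -0.11 to 0.86. The lowest value came without the A549 control and the highest without the BEAS-2B control. Between the lines, 3 passed, 3 to 4 over the scalings and 3 without any 1 library. Each fit between the lines without 1 library had 1 residual degree of freedom. Depth limits the scarce members: changes of miR-195-5p and miR-497-5p lay within counting error, and those of miR-15a-5p rested on at most 95 counts. Counts of miRNAs past the criteria and summed 5p ratios were recomputed 270 times, of which 203 stayed within 1.5 times or the counting interval and 67 moved. Single members gave 580 further values, of which 99 moved, and no called value took the opposite sign. The causes of these movements were not tested.

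The number of members past the criteria in A549 cells with 5 ng/mL, which was 1 with TMM, became 2 with DESeq2 size factors, quantile normalisation, TMM within each line, TMM on filtered miRNAs and no scaling. At 1 ng/mL it was 2 with quantile normalisation, and between the doses it was 0 with quantile normalisation, total count without miR-21-5p or an interval wholly beyond 1.4-fold. In BEAS-2B cells at 5 ng/mL, 1 became 3 with total count, no scaling or filtered TMM, and 0 with total count without miR-21-5p, a pseudocount of 10 or the interval rule. At 1 ng/mL, 3 became 1 with the interval rule and 2 with quantile normalisation, and between the doses 1 became 2 with DESeq2, filtered TMM or no scaling. Between the lines at 1 and 5 ng/mL, 2 became 1 when both libraries had to reach the ND, and 3 with miR-15b-3p under 5 of the 6 other scalings at 1 ng/mL and under 3 at 5 ng/mL.

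The log2 ratio of the summed 5p members, A549 over BEAS-2B, was -2.12 without treatment, and became -2.44 with filtered TMM, -2.55 without scaling, -2.31 with quantile normalisation and -2.65 with total count. At 1 ng/mL, -1.49 became -1.68, -1.28, -1.86 and -1.73 under the same settings, and -1.62 with total count without miR-21-5p. With 5 ng/mL, -2.62 became -2.77, -2.87 and -2.96 under filtered TMM, no scaling and quantile normalisation, and -2.88 without miR-21-5p. In BEAS-2B cells at 1 ng/mL, -0.65 became -0.83 with filtered TMM, -1.24 without scaling and -1.08 with total count. At the higher dose, 0.17 became 0.049 with DESeq2, -0.13 with filtered TMM, -0.18 without scaling, -0.24 with total count and 0.35 without miR-21-5p. Between the doses, 0.82 became 0.71 with filtered TMM, 1.06 without scaling and 0.96 without miR-21-5p. In A549 cells, the value at 1 ng/mL of -0.02 became -0.18 with quantile normalisation, and that between the doses of -0.32 became -0.53 without scaling and -0.022 with total count.

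The number of all miRNAs past the criteria changed as follows. Requiring the ND in both libraries gave 44 in place of 67 in A549 cells at 1 ng/mL, 41 in place of 75 at 5 ng/mL, 29 in place of 45 in BEAS-2B cells at 5 ng/mL and 3 in place of 8 between its doses. Between the lines it gave 58, 48 and 50 in place of 93, 92 and 99 at 0, 1 and 5 ng/mL. Between the doses in A549 cells, 22 became 40 at an ND of 7, 9 with the interval rule and 40 with total count. In BEAS-2B cells between the doses, 8 became 16 at an ND of 7, 4 with the interval rule, 20 without scaling and 13 with total count without miR-21-5p. At 1 ng/mL there, 35 became 88 without scaling and 70 with total count, and at 5 ng/mL 45 became 70 with filtered TMM, 74 without scaling and 79 with total count.

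Scaling also moved the split of calls. In BEAS-2B cells at 1 ng/mL, 19 higher and 16 lower became 16 and 23 with DESeq2, 8 and 62 with total count, 6 and 82 without scaling and 11 and 31 with filtered TMM. With 5 ng/mL, 25 and 20 became 20 and 34, 11 and 68, 12 and 62 and 15 and 55 under the same settings, 33 and 9 without miR-21-5p and 21 and 26 with quantile normalisation. Between the doses, 7 and 1 became 5 and 3 with DESeq2, 5 and 2 with quantile normalisation, 20 and 0 without scaling and 4 and 6 with filtered TMM. In A549 cells at 1 ng/mL, 37 and 30 became 29 and 38, 23 and 39 and 31 and 40 with DESeq2, total count and quantile normalisation. At the higher dose, 38 and 37 became 51 and 26 with total count and 31 and 52 without scaling, and between the doses 11 and 11 became 38 and 2 and 2 and 25. Between the untreated lines, 55 higher and 38 lower became 34 and 70 with total count, 46 and 48 with quantile normalisation, 37 and 64 without scaling and 38 and 60 with filtered TMM. At 1 ng/mL, 55 and 37 became 37 and 54, 44 and 50, 70 and 25 and 46 and 50 under the same settings. With 5 ng/mL, 56 and 43 became 47 and 62 without miR-21-5p, 45 and 59 with quantile normalisation and 45 and 58 without scaling.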
